A study of Mus musculus with 9 samples.

Results

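The 40 genes described here form the protein folding and quality control machinery of the endoplasmic reticulum (ER). They were taken by symbol from a list and comprise 5 chaperones, 7 J-proteins and other chaperone partners, 9 disulfide and prolyl isomerases, 14 genes of ER-associated degradation (ERAD), and 5 genes of the unfolded protein response or its stress signalling. All 40 were found among the 56941 Ensembl genes counted, and all 40 were among the 18548 genes with enough counts to be tested. Islets of Langerhans had been isolated from male wild-type C57Bl/6J mice that were 15 weeks old when they entered a feeding period of 9 months. The groups were a low fat diet with 10% fat (LFD, 3 libraries), a high fat diet with 60% fat (HFD, 2 libraries) and a ketogenic diet with 89.9% fat (KD, 4 libraries), none of them with a transgene or drug. The labels number the libraries of a diet as replicates without saying that each came from its own mouse or whether islets were pooled. The p-values therefore set differences between diets against the spread between these libraries, which may not be the spread between mice. Levels are in CPM, the counts of a gene relative to its library size, with sizes scaled by TMM, a method that aligns most genes between libraries.

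Proteins bound for secretion are threaded into the ER, where Hsp70 and lectin chaperones hold them while disulfide bonds form and prolines are isomerised. Those that fail to fold are recognised, pulled back through a channel around the ligase Hrd1, ubiquitinated and degraded, which is ERAD. When unfolded protein accumulates, the sensors encoded by Ern1 (IRE1 alpha), Atf6 and Eif2ak3 (PERK) start the unfolded protein response, in which spliced Xbp1 and cleaved Atf6 switch on chaperone and ERAD genes. Beta cells, which make proinsulin, and acinar cells, which make digestive enzymes, both carry this machinery at high levels.

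The libraries differed in the share of counts taken by acinar cell markers. In LFD replicates 1 to 3, a list of 26 acinar markers made up 35.8%, 25.1% and 15.2% of counts, against 18.99% and 11.4% in the HFD replicates and 60.9%, 44.8%, 56.6% and 20.5% in KD replicates 1 to 4. KD replicates 1 and 3 thus stood apart at the high end and KD replicate 4 lay inside the LFD range, and no acinar marker was without counts in any diet. The 10 beta cell markers were all counted in each diet and took between 1.68% and 12.9% of counts. The 9 lymphocyte markers summed to between 19.7 and 103 CPM on LFD, 3.50 and 3.90 CPM on HFD, and 1.16 and 2.26 CPM on KD. The 5 plasma cell markers, from a cell type rich in ER, summed to between 11.1 and 128 CPM on LFD, 15.4 and 23.1 on HFD, and 5.88 and 8.29 on KD. The part of these cells in the members' values was not tested. Library totals ran from 15513502 to 26588390 counts, and TMM factors from 0.542 in KD replicate 1 to 1.50 in HFD replicate 2. Without the TMM factor, the median log2 fold change of all genes between KD and LFD was -0.59 in place of -0.02, and directions below are relative to TMM. In tissue of several cell types, fewer cells of a type and less RNA per cell cannot be told apart.

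Many genes of this machinery share short promoter elements, and the sequences below show a promoter stretch with the ER stress element for each role that had one, and a second ERAD gene, Herpud1, for the second form of the element. RefSeq promoters on GRCm38.p6, covering 250 bases before to 50 bases after the start, were matched for 35 of the 40 genes, the others being Hyou1, Manf, Derl1, Ube2g2 and Atf6. The ER stress element, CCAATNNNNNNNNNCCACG on either strand, was found in the promoters of 9 of 35 members (25.7%), against 37 of 27025 genes with a promoter (0.137%). The members were Hspa5, Hsp90b1, Calr, Canx, Dnajc3, Creld2, Pdia6, Syvn1 and Derl3. The printed stretch of Hspa5, with flanks on both sides of the element, covers chr2:34772005-34772063 (forward strand), that of Dnajc3 chr14:118937807-118937865 (forward), that of Pdia6 chr12:17266471-17266529 (forward) and that of Derl3 chr10:75893222-75893280 (forward, element on the opposite strand). The second form, ATTGGNCCACG on either strand, was found in Dnajb11 and Herpud1 (5.71% of members against 0.0444% of genes), and the printed stretch of Herpud1 covers chr8:94386357-94386407 (forward). Capitals mark the element:
Hspa5: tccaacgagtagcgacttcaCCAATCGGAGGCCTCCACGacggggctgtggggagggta
Dnajc3: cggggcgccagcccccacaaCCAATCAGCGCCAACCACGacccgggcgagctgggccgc
Pdia6: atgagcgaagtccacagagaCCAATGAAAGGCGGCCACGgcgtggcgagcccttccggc
Derl3: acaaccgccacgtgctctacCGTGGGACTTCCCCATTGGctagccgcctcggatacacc
Herpud1: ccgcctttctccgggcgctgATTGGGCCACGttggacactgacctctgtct

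The core of the UPR element, ACGTGG on either strand, was found in 14 of 35 member promoters (40%) and in 9.4% of genes. They included those of P4hb, Ppib, Edem3 and Os9, and the core in Herpud1 overlapped its second-form element. A match is a description of the letters and not a binding site. Members with and without the ER stress element had overlapping fold changes. The log2 fold changes of KD against LFD of the 9 genes with it ran from -0.05 to 1.16 (median 0.34) and those of the 26 genes with a promoter and without it from -0.08 to 1.26 (median 0.52).

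Levels were compared between genes per kilobase of exon, with all annotated exons of a gene joined. That length need not be the length of the transcript expressed, so the order of genes is approximate. P4hb (protein disulfide isomerase) had the highest mean level on LFD at 303 CPM per kb. Next came the Hsp70 chaperone gene Hspa5 (BiP) at 232 and the Hsp90 chaperone gene Hsp90b1 (GRP94) at 199. Herpud1, a membrane scaffold of the ERAD complex, followed at 169 CPM per kb. Fkbp2, a prolyl isomerase, had the lowest LFD mean at 5.19, just below Derl2 at 6.36 and Pdia5 at 6.68 CPM per kb. The LFD range of Hspa5 (187 to 285) overlapped those of P4hb (235 to 349) and Hsp90b1 (176 to 230), its neighbours in this order. The ranges of P4hb and Hsp90b1 did not overlap. On KD the mean of P4hb was 521 CPM per kb and that of Sel1l was 165, against 303 and 68.9 on LFD.

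**Figure D1:**
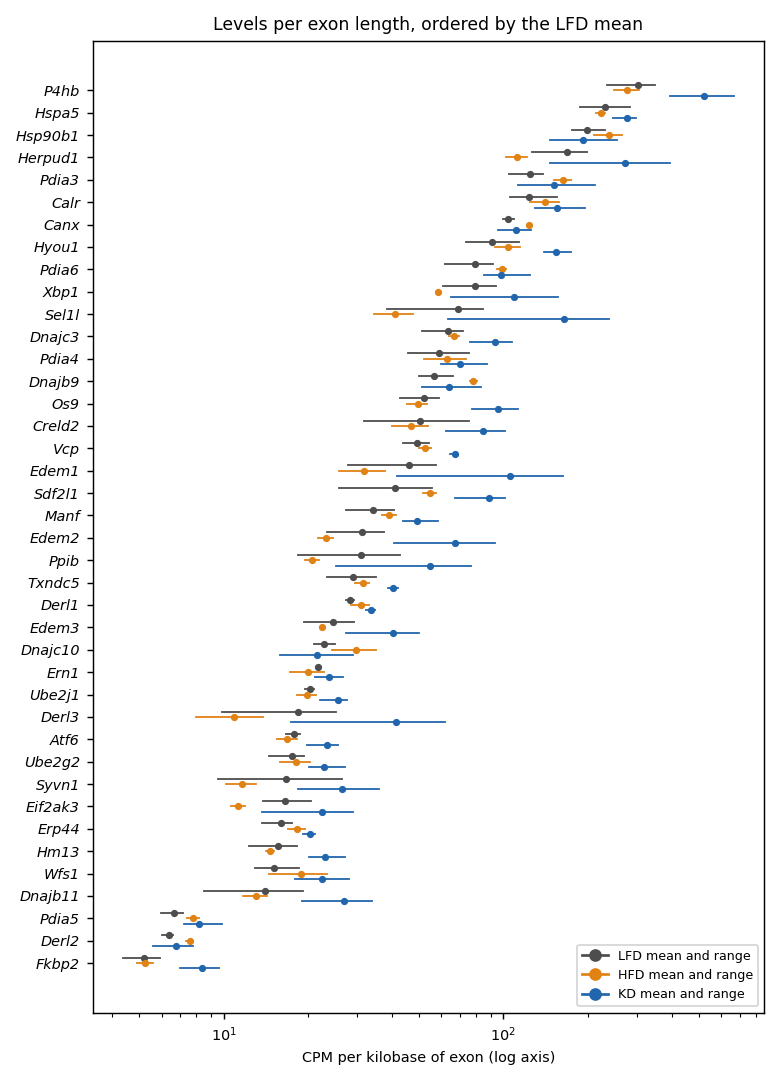
Level of each of the 40 genes in CPM per kilobase of exon on a log axis, ordered by the LFD mean, with a point for the mean of each diet and a line for the range of its libraries (LFD 3, HFD 2, KD 4). P4hb, Hspa5 and Hsp90b1 head the order and Fkbp2 closes it, and the widest KD ranges belong to ERAD genes such as Sel1l, Edem1 and Derl3.

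KD against LFD, the comparison at the centre of the study, showed 3 of the 40 genes higher on KD and none lower. They were Sdf2l1, a partner of BiP and its J-proteins, and the ERAD genes Os9, a lectin that delivers glycoproteins to the Hrd1 complex, and Edem2, which starts the mannose trimming that marks glycoproteins for disposal. By edgeR's quasi-likelihood test with Benjamini-Hochberg adjustment over all genes, 0.981% of genes were higher, 3.14% were lower and 4.12% differed in either direction. At an unadjusted p below 0.05, 24 members were higher and none lower, where 10.8% of all genes were higher and 22.7% differed in either direction. The fitted fold was above 1 for 38 members (48.1% of all genes) and their median log2 fold change was 0.47. Against library totals without TMM, 14 were above 1 (8.73% of all genes) and their median was -0.11. On both scales the members' median stood 0.49 and 0.47 above that of all genes. Libraries did not overlap and were higher on KD for 17 members (9.69% of all genes), and none was lower without overlap (10.1% of all genes).

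**Figure D2:**
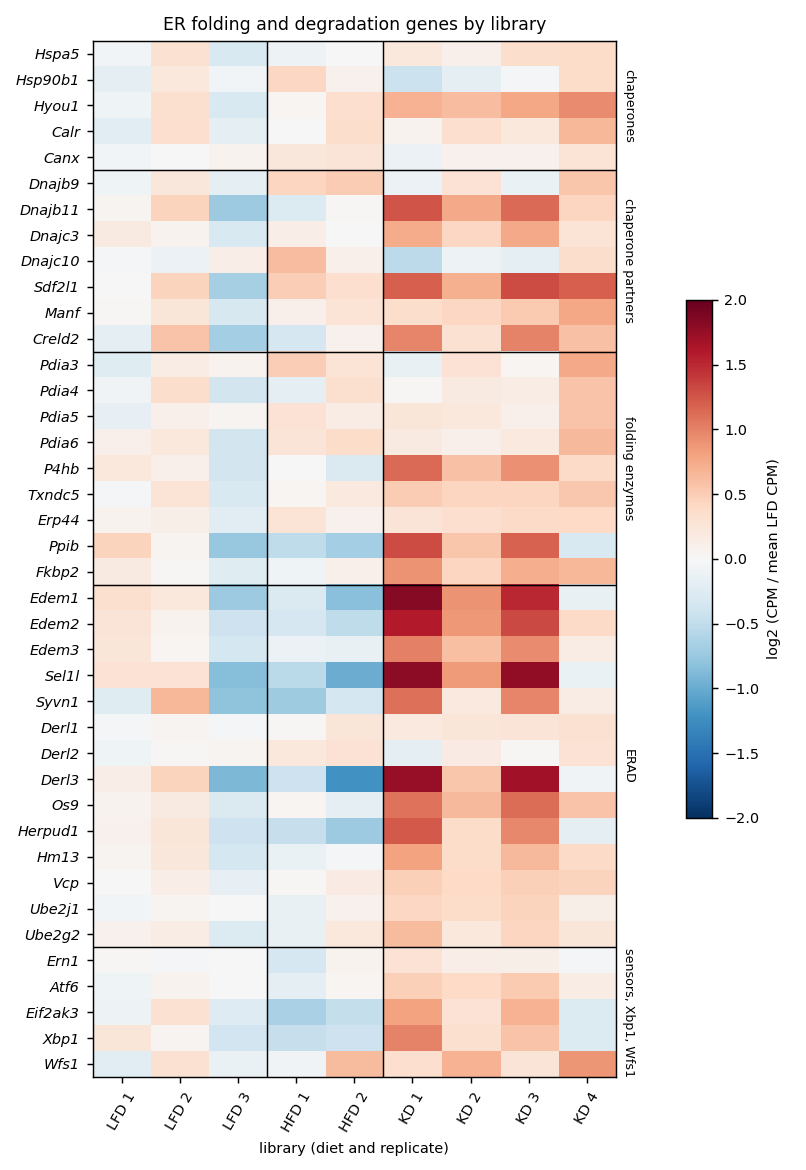
Heat map of log2 (CPM over the mean LFD CPM) for the 40 genes, in rows grouped by role, and the 9 libraries, in columns by diet and replicate, on TMM-scaled sizes. KD replicates 1 and 3 are deepest red for ERAD genes such as Sel1l, Edem1 and Derl3, whereas KD replicate 4 is the reddest KD column for the chaperones. Against library totals without TMM, 26 of the 40 KD against LFD folds are below 1 and 14 above, where 8.73% of all genes are above 1.

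Sdf2l1 (ENSMUSG00000022769) stood at 45.9, 61.8 and 28.7 CPM in LFD replicates 1 to 3, at 63.7 and 57.4 in HFD replicates 1 and 2, and at 105, 74.3, 112 and 104 in KD replicates 1 to 4. Every KD library was above every LFD library, and KD replicate 2 was the lowest of its diet. The mean was 98.7 ± 16.7 CPM on KD (SD, n = 4) and 45.5 ± 16.5 on LFD (SD, n = 3), a log2 fold change of 1.12 (SE 0.23, edgeR adjusted p = 0.0279). Sdf2l1 passed the threshold in 15 of 21 alternative analyses, adjusted p running from 0.000847 to 0.287, and did not pass without LFD replicate 1 (0.108), KD replicate 1 (0.0581) or KD replicate 3 (0.0805).

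The level of Os9 (ENSMUSG00000040462) was 144, 155 and 113 CPM in the LFD libraries, 141 and 119 in the HFD libraries and 291, 215, 297 and 204 in KD replicates 1 to 4. The KD libraries lay above all others, with replicates 1 and 3 the highest. Its mean of 252 ± 49.3 CPM on KD (SD, n = 4) compared with 137 ± 21.7 on LFD (SD, n = 3), a log2 fold change of 0.88 (SE 0.18, edgeR adjusted p = 0.0267). Os9 passed in 12 of 21 alternatives, adjusted p from 0.000792 to 0.572. Omission of any 1 LFD library, or of KD replicate 1, 2 or 3, ended the call at adjusted p from 0.0528 to 0.0957.

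For Edem2 (ENSMUSG00000038312) the levels were 129, 114 and 81.0 CPM in LFD replicates 1 to 3, 85.2 and 75.5 on HFD, and 323, 197, 269.8 and 140.2 in KD replicates 1 to 4. All KD libraries again exceeded all LFD libraries, though KD replicate 4 exceeded the highest of them by little. KD exceeded LFD by a log2 fold change of 1.11 (SE 0.27, edgeR adjusted p = 0.0443) between means of 232 ± 80.3 (SD, n = 4) and 108 ± 24.6 CPM (SD, n = 3). Edem2 passed in 7 of 21 alternatives, adjusted p from 0.00212 to 0.439, and of the 9 omissions of 1 library only that of KD replicate 4 kept it past the threshold.

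Among the 5 chaperones none passed. The folds of KD against LFD were above 1 for 4 of them, but for 1 of 5 without TMM (8.73% of all genes). BiP, the Hsp70 that pulls proteins into the ER and releases the stress sensors when engaged, is encoded by Hspa5 and stood at 941, 1203 and 793 CPM on LFD, 907 and 975 on HFD and 1137, 1045, 1245 and 1260.4 on KD. LFD replicate 2 lay within the KD range. The log2 fold change of Hspa5 was 0.26 (95% interval -0.18 to 0.70, edgeR adjusted p = 0.468), and -0.31 without TMM.

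Hyou1, a large Hsp70-related protein that exchanges nucleotide on BiP, was at 621, 824 and 531 CPM on LFD, 678 and 831 on HFD and 1065, 1006, 1130.3 and 1263 on KD. Its KD libraries lay above all LFD and HFD libraries, yet the log2 fold change of 0.76 (SE 0.20) missed the threshold at an edgeR adjusted p of 0.0599 and passed it in 5 of 21 alternatives. The calcium-binding lectin chaperone gene Calr was at 305, 448 and 315 CPM on LFD, 359.7 and 454 on HFD and 375, 447, 414 and 562 on KD, with overlap. Its log2 fold change was 0.34 (edgeR adjusted p = 0.338), and -0.18 without TMM. Canx, its membrane-bound relative, and Hsp90b1 had log2 fold changes of 0.09 and -0.05.

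Of the 7 chaperone partners, Sdf2l1 passed (0.981% of all genes higher). At an unadjusted p below 0.05, 5 were higher (10.8% of all genes). Folds were above 1 for 6 of 7, and for 3 of 7 without TMM (8.73% of all genes). Dnajb11 (ERdj3), a J-protein that hands substrates to BiP, was at 47.4, 62.2 and 27.5 CPM on LFD, 37.9 and 46.4 on HFD and 109.7, 77.6, 99.7 and 61.7 on KD. Only KD replicate 4 lay within the LFD range, just below LFD replicate 2. For Dnajb11 the log2 fold change came to 0.93 (SE 0.27, edgeR adjusted p = 0.0815). Dnajc3 (p58IPK), Manf, a secreted factor that binds BiP, and Creld2 had log2 fold changes of 0.56, 0.52 and 0.74, with adjusted p of 0.102, 0.0914 and 0.152 by edgeR. Dnajb9 (ERdj4) and the disulfide reductase gene Dnajc10 (ERdj5) were at 0.18 and -0.08.

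None of the 9 folding enzymes passed. All 9 folds were above 1 with TMM and 3 of 9 without it (8.73% of all genes). KD libraries lay clear above LFD libraries for 5 (9.69% of all genes). P4hb had levels of 997, 929.6 and 672 CPM on LFD, 874 and 712 on HFD and 1907, 1297, 1629 and 1126 on KD. Its KD libraries were all the highest, in the order of replicates 1, 3, 2 and 4, with a log2 fold change of 0.78 (SE 0.24, edgeR adjusted p = 0.0936). Fkbp2 was at 9.69, 8.69 and 7.18 CPM on LFD, 8.05 and 9.18 on HFD and 15.8, 11.4, 14.2 and 13.5 on KD. These libraries did not overlap either, at a log2 fold change of 0.69 (SE 0.18, edgeR adjusted p = 0.0544). The other disulfide isomerase genes, Pdia3, Pdia4, Pdia5, Pdia6, Txndc5 and Erp44, had log2 fold changes between 0.25 and 0.48. Ppib, the ER cyclophilin that turns prolines, had 0.81 (SE 0.38) with libraries that overlapped.

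The 14 ERAD genes held 2 of the 3 genes called higher, where 0.981% of all genes were. At an unadjusted p below 0.05, 12 of the 14 were higher (10.8% of all genes). All 14 folds were above 1 with TMM and 6 without it (8.73% of all genes). Their largest fitted change belonged to Sel1l, the membrane partner of Hrd1, which, like Edem1, Ppib and Herpud1, was singled out after its values were seen. Sel1l stood at 723, 717 and 328 CPM on LFD, 406 and 296 on HFD, and 2036, 1066, 2015 and 541 in KD replicates 1 to 4. The first 3 KD libraries were the highest of all and KD replicate 4 was within the LFD range, so the log2 fold change of 1.26 carried an SE of 0.45 (edgeR adjusted p = 0.136).

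Derl3, a derlin of the retrotranslocation channel, had the same layout, at 40.3, 50.2 and 19.6 CPM on LFD, 27.7 and 15.9 on HFD and 123, 54.0, 118 and 34.8 on KD. KD replicate 4 was below LFD replicates 1 and 2. The log2 fold change of Derl3 was 1.16 (SE 0.50, edgeR adjusted p = 0.216). Its relatives Derl1 and Derl2 had log2 fold changes of 0.25 and 0.09. The Hrd1 gene itself, Syvn1, was at 0.67 (SE 0.35), and the mannosidase-like Edem1 and Edem3 were at 1.19 (SE 0.43) and 0.71 (SE 0.21). Vcp, the ATPase that pulls substrates out of the membrane, stood between 313 and 334 CPM on KD and between 213 and 263 on LFD, a log2 fold change of 0.45 (SE 0.13, edgeR adjusted p = 0.0806). Hm13, a protease of signal peptides, was at 0.56, Herpud1 at 0.69, and the ubiquitin-conjugating enzyme genes Ube2j1 and Ube2g2 at 0.34 and 0.39.

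No sensor or signalling gene passed between KD and LFD. All 5 folds were above 1 with TMM and 1 of 5 without it (8.73% of all genes). Atf6 was at 154, 173 and 166 CPM on LFD, 143 and 168 on HFD and 228, 217, 236 and 183 on KD. The KD libraries did not overlap the others, with a log2 fold change of 0.40 (SE 0.14, edgeR adjusted p = 0.12), and -0.23 without TMM. Ern1 was at 181, 175 and 179 CPM on LFD, 141 and 187 on HFD and 218, 195, 193 and 174 on KD, a log2 fold change of 0.13 (95% interval -0.18 to 0.43) that was -0.48 without TMM.

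Xbp1 transcripts, counted here without regard to splicing, were at 305, 267 and 198 CPM on LFD, 187 and 193 on HFD and 509, 319.8, 382 and 212 on KD. KD replicates 1 to 3 were above every other library and replicate 4 was within the LFD range. The log2 fold change of Xbp1 was 0.47 (SE 0.26, edgeR adjusted p = 0.307), and -0.22 without TMM. The PERK gene Eif2ak3 was at 93.4, 123 and 83.3 CPM on LFD, 64.1 and 71.8 on HFD and 174, 122, 162 and 82.5 on KD. Its KD replicate 4 was the lowest of the KD and LFD libraries together, with a log2 fold change of 0.43 (SE 0.24, edgeR adjusted p = 0.307), and -0.27 without TMM. Wfs1, an ER membrane protein whose loss causes a form of diabetes, was at 48.9, 70.5 and 52.5 CPM on LFD, 54.9 and 88.5 on HFD and 72.4, 92.7, 68.3 and 106 on KD. LFD replicate 2 exceeded KD replicate 3, for a log2 fold change of 0.57 (SE 0.21, edgeR adjusted p = 0.146).

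**Figure D3:**
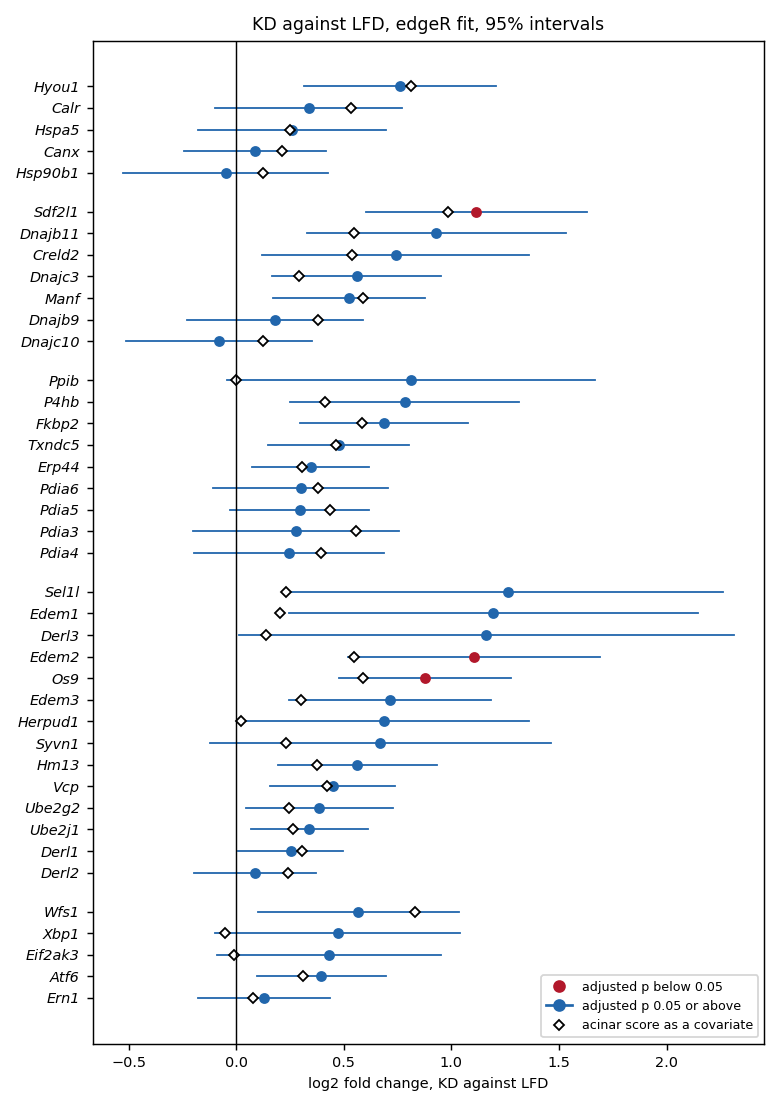
Log2 fold change of KD against LFD for the 40 genes, by role and then by size, with 95% intervals from edgeR (circles, red where the adjusted p was below 0.05) and the change once the acinar score was in the model (open diamonds). Sdf2l1, Edem2 and Os9 are red, and the diamonds of Sel1l, Edem1, Derl3, Ppib and Herpud1 lie far to the left of their circles. Without TMM, 26 of the 40 changes are below 0 and 14 above, where 8.73% of all genes are above 0.

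The 4 KD libraries did not rank alike across the roles. KD replicates 1 and 3, the libraries with the highest acinar shares, were both above replicates 2 and 4 for 22 of the 40 members, where 25.4% of all genes showed this order. That held for 12 of 14 ERAD genes, 3 of 5 sensor and signalling genes, 4 of 7 chaperone partners, 3 of 9 folding enzymes and 0 of 5 chaperones. KD replicate 4, with the lowest acinar share of its diet, was instead the highest KD library for all 5 chaperones, for 6 of 9 folding enzymes and for 17 members in all (34.5% of all genes). That library also had the highest beta cell marker share of its diet, 12.8% against 1.68%, 5.08% and 2.89% in KD replicates 1 to 3. The part of either share in this order was not tested. For Sel1l, Edem1, Edem3, Syvn1, Derl3, Herpud1, Xbp1 and Eif2ak3, among others, replicate 4 was at or below the highest LFD library. The share of all genes in that position was not computed.

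The level of several members followed the acinar score, the mean log2 CPM of the 26 acinar markers, within diets. In an edgeR fit with the diet and this score, the slope was above 0 and passed the threshold for 12 members (6.14% of all genes) and was below 0 for 1, Pdia3 (3.54% of all genes). It was steepest for Sel1l, at 0.78 log2 units per log2 unit of the score (SE 0.08), for Derl3 at 0.77 (SE 0.11), for Edem1 at 0.74 (SE 0.07) and for Ppib at 0.65 (SE 0.07). Hspa5, Txndc5 and Vcp had slopes of 0.01, 0.01 and 0.02. For Pdia3, which forms disulfides in glycoproteins held by calreticulin and calnexin, the slope was -0.27 (SE 0.07).

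With the acinar score in the model, 7 members were higher on KD than on LFD and none lower, where 3.05% of all genes were higher and 4.9% lower by edgeR. Sdf2l1 (0.98), Os9 (0.59) and Edem2 (0.55) stayed past the threshold, and Hyou1 (0.81), Wfs1 (0.83), Manf (0.59) and Pdia3 (0.56) joined them on the log2 scale. Sel1l went from 1.26 to 0.23, Edem1 from 1.19 to 0.20, Derl3 from 1.16 to 0.14 and Herpud1 from 0.69 to 0.02. Xbp1, Eif2ak3 and Ppib came to -0.055, -0.012 and -0.0012. The members' median was 0.31 and that of all genes -0.01. The score and the diet are not independent in these libraries, and whether acinar RNA accounts for a change in a given member was not tested.

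**Figure D4:**
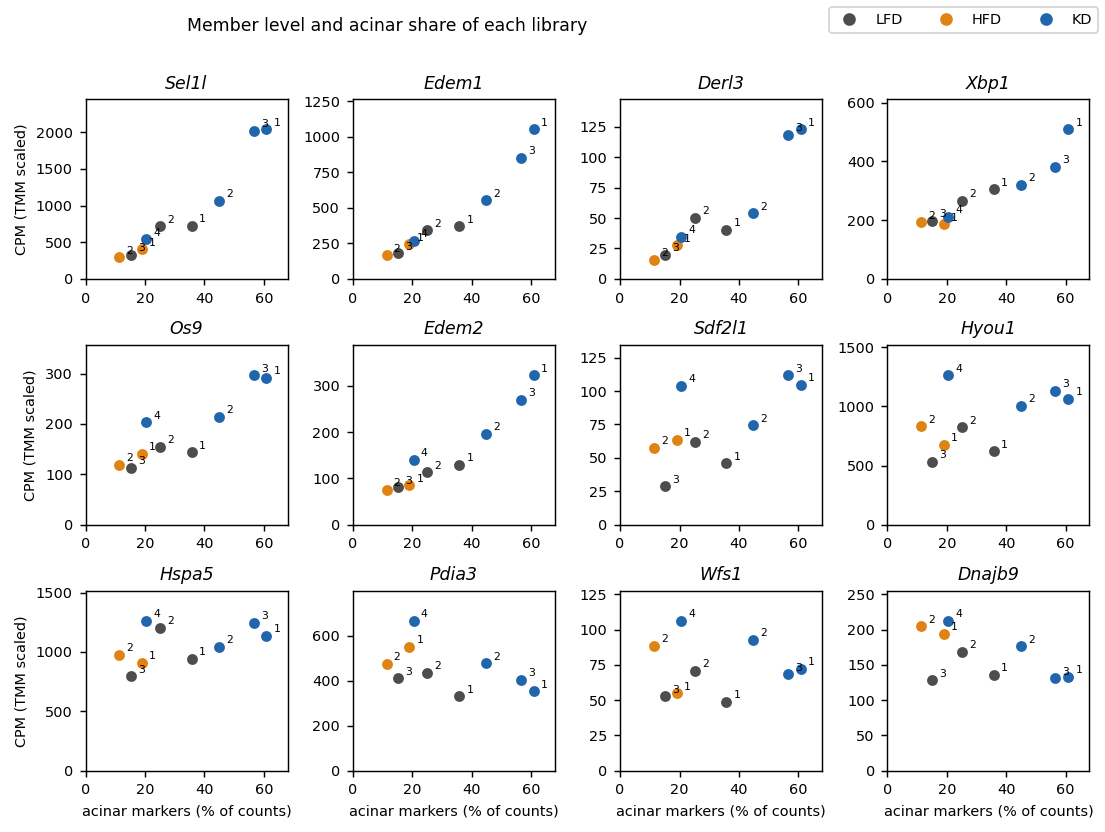
CPM on TMM-scaled sizes of 12 of the genes against the percent of counts from acinar markers, 1 point per library coloured by diet and numbered by replicate. For Sel1l, Edem1, Derl3 and Xbp1, KD replicate 4 lies among the LFD points, KD libraries of Sdf2l1, Hyou1, Os9 and Edem2 lie above LFD and HFD libraries, and KD replicate 4 (20.5% acinar) is the highest KD point for Hyou1, Hspa5, Pdia3, Wfs1 and Dnajb9.

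Leaving out KD replicate 4, the KD library with the lowest acinar share, gave 10 members higher on KD, among them Sel1l, Edem1, Edem3, P4hb and Herpud1. Over all genes, 707 were then higher and 641 lower, against 182 and 582 with all libraries. No member passed without KD replicates 1 and 3 together, where 3 of all genes were higher and 61 lower. All 40 folds were then above 1 (48.9% of all genes), with a median log2 fold change of 0.39. None of the members passed without LFD replicate 1, KD replicate 1 or KD replicate 3 alone. In those fits 3, 38 and 8 of all genes were higher and 174, 340 and 143 lower. No member passed with a lymphocyte score as covariate either, where no gene of all those tested passed. The members' median log2 fold change was larger in that fit, 1.18 in place of 0.47, and that of Sdf2l1 was 2.63 in place of 1.12. The score, the mean log2 CPM of the 9 lymphocyte markers, ran from 0.54 to 3.10 on LFD and from -2.68 to -2.07 on KD. It did not overlap between these diets, so that fit cannot tell the score apart from the diet, in its folds or its calls. The DESeq2 Wald test called 15 members (3.66% of all genes higher) and limma-voom 12 (3.46%), all higher on KD, and both sets included Sdf2l1, Os9 and Edem2.

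HFD against LFD gave no call among the 40 members. The edgeR test called 0 of 40 (0% of all genes), with 0 members at an unadjusted p below 0.05 (9.99% of all genes, 3.55% higher and 6.44% lower), and DESeq2 (0.113% of all genes higher) and limma-voom (0.00539%) called 0 members as well. Folds were above 1 for 21 members (49.8% of all genes) and below 1 for 19, with a median log2 fold change of 0.03. Without TMM they were above 1 for 31 (68.8% of all genes) and below 1 for 9. Libraries did not overlap and were higher on HFD for 6 members (13.4% of all genes) and lower for 3 (14.1%), which were Herpud1, Eif2ak3 and Xbp1. The highest value was the 0.47 of Dnajb9 (95% interval -0.01 to 0.95, edgeR adjusted p = 0.508), at 194 and 205 CPM on HFD against 136, 169 and 128 on LFD. Sel1l and Derl3 had the lowest at -0.75 each. For Hspa5 it was -0.06 (95% interval -0.58 to 0.46). Acinar markers were below 1 in fold for 26 of 26 in this comparison, and their part in these values was not tested.

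KD against HFD also had no member past the threshold by edgeR (0% of all genes), with a smallest adjusted p of 0.124. At an unadjusted p below 0.05, 22 members were higher on KD (12.1% of all genes) and none lower (10.6%). The DESeq2 Wald test called 16 members, all higher (5.58% of all genes), and limma-voom 0. Libraries did not overlap and were higher on KD for 25 members (15.7% of all genes) and lower for none (18.2%). Folds were above 1 for 33 members (46.6% of all genes), with a median log2 fold change of 0.42, and for 11 without TMM (7.96% of all genes). The largest were again ERAD genes, Sel1l at 2.01 (SE 0.55), Derl3 at 1.92 (SE 0.61), Edem1 at 1.73 (SE 0.51) and Edem2 at 1.53 (SE 0.32). This comparison uses the same KD libraries as that with LFD, and the values are given side by side only. Eif2ak3, at 0.43 against LFD, was at 0.99 (SE 0.28) against HFD, and Xbp1, at 0.47 against LFD, was at 0.90 (SE 0.30). Hspa5 was at 0.26 and 0.32 and Hyou1 at 0.76 and 0.57. Over the 3 diets jointly, edgeR called 2 members, Os9 (adjusted p = 0.0334) and Edem2 (adjusted p = 0.0367), where 2.17% of all genes passed, and 24 had an unadjusted p below 0.05 (24.6% of all genes).

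Summed over the 40 members, the mean share of all counts was 1.10% for LFD (SD 0.200, n = 3). It was 1.27% for HFD (SD 0.167, n = 2) and 1.06% for KD (SD 0.255, n = 4). On the TMM scale the sum was 9355 ± 1524 CPM on LFD, 9327 ± 112 on HFD and 13737 ± 1820 on KD. The share of counts was lowest in KD replicate 1 at 0.838%, the library with the highest acinar share, and highest in KD replicate 4 at 1.42%. The ranges of share overlapped across the diets, while the KD sums on the TMM scale, from 12147 to 15487 CPM, were above the LFD sums, from 7733 to 10757 CPM.

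Other genes of the same pathway were read from a list of 79, of which 78 were tested. Between KD and LFD 4 were higher and 1 lower by edgeR (0.981% and 3.14% of all genes). At an unadjusted p below 0.05, 24 were higher and 2 lower (10.8% and 11.9% of all genes). Folds were above 1 for 62 of 78 (48.1% of all genes), with a median log2 fold change of 0.21. Sil1, which exchanges nucleotide on BiP as Hyou1 does, was at 36.7, 33.9 and 32.9 CPM on LFD, 39.7 and 37.0 on HFD and 65.0, 53.6, 51.7 and 49.1 on KD. All KD libraries were above the rest, with a log2 fold change of 0.67 (SE 0.13, edgeR adjusted p = 0.021). Dnajb12, a J-protein of the ER membrane, was between 42.5 and 46.4 CPM on KD and between 29.4 and 30.9 on LFD (log2 fold change 0.53, edgeR adjusted p = 0.0374). Both remained past the threshold with the acinar score in the model, at 0.54 each. Mogs, the glucosidase that begins trimming of N-glycans, and Foxred2, a flavoprotein of ERAD, were at 0.72 and 1.15 (edgeR adjusted p = 0.0477 each) and did not pass with the acinar score, at 0.59 and 0.56. The gene that was lower, Serpinh1, a collagen-specific chaperone, was at 71.6, 82.3 and 47.5 CPM on LFD, 36.0 and 66.5 on HFD and 35.8, 32.3, 20.8 and 27.9 on KD (log2 fold change -1.20, edgeR adjusted p = 0.0298). With the acinar score the value for Serpinh1 was -1.22 and missed the threshold (edgeR adjusted p = 0.059). The 7 fibroblast markers had folds below 1 in 7 of 7, with a median log2 fold change of -0.72 and sums between 121 and 307 CPM on KD and between 257 and 509 on LFD, and their part in the Serpinh1 value was not tested. None of the 78 passed between HFD and LFD or between KD and HFD by edgeR (0% of all genes in each). At an unadjusted p below 0.05 there were 1 and 32, where 9.99% and 22.7% of all genes were.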

How the data were processed

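Poly(A) RNA from islets was made into directional libraries, per the labels' protocols, and a table of counts per Ensembl gene for 9 libraries was deposited. The submitters' processing notes name cutadapt 1.16, STAR 2.7.9a, featureCounts 1.6.3, DESeq2 1.40.2 and the builds GRCm39 and mm39, with no roles or settings, and the strand setting of the counting is not given in the sources used here. Reads of overlapping genes may therefore not be separable. Symbols came from a supplied table that named 51948 of 56941 genes, Hm13 by its older name. The labels name no batch or date, and a batch effect cannot be told apart from diet.

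The counts were fitted in R 4.3.3 with edgeR 4.0.16 (filterByExpr by diet, TMM, robust quasi-likelihood fit of a mean per diet on all 9 libraries, two-sided, Benjamini-Hochberg over 18548 genes, threshold 0.05). Standard errors were obtained from the F statistic (change divided by its square root), and scores used a prior count of 2. Libraries of a diet correlated at 0.941 to 0.975 across genes, and none matched another within sampling noise (smallest chi-square per gene 22.5). Exon lengths came from GENCODE M21 and promoters from RefSeq. The alternatives were DESeq2 size factors, TMM without acinar and hormone genes, DESeq2 1.42.0, limma-voom (limma 3.58.1) with sample weights, 2 filters, a fit of only the diets compared, acinar and lymphocyte scores, the replicate block and omission of each library. The procedure was run on simulated counts with known changes on KD. Those were drawn without acinar differences between libraries, so that run does not cover the acinar differences seen here. Values are given in full for members past the threshold, for the 2 with the lowest unadjusted p of each role between KD and LFD, and for Hspa5, Xbp1, Ern1, Atf6, Eif2ak3, Derl3 and Wfs1, and for other pathway genes past the threshold. Members, lists and tests were chosen with earlier results of these data known.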

Additional observations from a re-analysis of the deposited data

Results flagged for a closer look

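Pdia6, a disulfide isomerase gene, stood at 338, 319 and 342 CPM in KD replicates 1 to 3 and at 465 CPM in KD replicate 4. The gap of that library to the next covered 0.844 of the range of the 4 KD libraries, above Dixon's 95% critical value for 4 samples. Of 40 members examined in this way on KD, 1 was above that value, and chance gives about 1 in 20 groups. KD replicate 4 also had the lowest share of acinar counts of its diet, 20.5%, and the highest share of beta cell marker counts, 12.8%. A part of either in the Pdia6 value was not tested.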

How the results depend on the processing

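For KD against LFD, 3 members passed by edgeR. The number was 15 with the DESeq2 Wald test, 12 with limma-voom, 6 without a low-count filter, 7 with the acinar score and 0 with the lymphocyte score as covariate, 0 with library totals and 0 when KD replicates 1 and 3 were both omitted, the last pair of settings chosen after seeing the data. Omission of 1 library at a time gave 0 to 10. HFD against LFD had 0 under every alternative. KD against HFD had 16 with the DESeq2 Wald test, 3 without a low-count filter (316 of all genes called) and 0 to 14 with 1 library omitted, the 14 without KD replicate 4 (1793 of all genes), where edgeR with all libraries called 0. The joint comparison had 2 by edgeR (402 of all genes called). It had 18 with the DESeq2 likelihood ratio test, 12 with limma-voom and 7 without a low-count filter. With at least 5 CPM in at least 3 libraries it had 0. It also had 0 with the lymphocyte score, 0 with library totals and 0 without both KD replicates 1 and 3. With 1 library omitted it had 0 to 15. Settings also differed in calls over all genes. For KD against LFD these were 764 by edgeR, 1773 with the DESeq2 Wald test and 1873 with limma-voom. They were 1062 without a low-count filter, 1473 with the acinar score and 0 with the lymphocyte score. Library totals gave 10 higher and 1643 lower, and omission of both KD replicates 1 and 3 gave 3 and 61. A higher or lower member count under another setting is therefore not by itself a result about the members. For the joint comparison, calls over all genes are given only for edgeR with and without the replicate block. Replicate numbers are shared by the diets in the labels, but deviations of same-numbered libraries correlated between -0.0164 and 0.222, so the numbers were not taken as pairs. With the replicate number as a block, 15 members passed for KD against LFD, 13 for KD against HFD (12 higher, 1 lower) and 15 jointly, with 2003, 2320 and 2820 of all genes called, against 764, 0 and 402 without the block. Replicate number 4 occurs only on KD, so KD replicate 4 was fitted by its own block term and did not bear on the diet differences there. The fit without KD replicate 4 called 10 members for KD against LFD. Of the 15 members followed singly across 21 alternatives, signs reversed with library totals for Hspa5 (-0.31), Calr (-0.18), Ern1 (-0.48), Atf6 (-0.23), Eif2ak3 (-0.27) and Xbp1 (-0.22), and with the acinar score for Eif2ak3 (-0.012) and Xbp1 (-0.055). Of their 315 values, 259 kept direction and side of the threshold, 29 lost and 19 gained the threshold. The cause of these differences was not tested. Precision is limited by groups of 2 to 4 libraries. By depth, each library's share of counts from the members is known to within 0.005755 percentage points by a 95% Wilson interval, counting error only.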
